A study of Mus musculus with 8 samples.

Results

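The 8 genes examined here encode parts of the podocyte slit diaphragm and proteins that anchor or regulate it. They were chosen by name, as Nphs1, Kirrel, Magi2, Podxl, Ptpro, Synpo, Plce1 and Wt1, and each was matched by symbol to 1 of the 49315 Ensembl gene IDs counted in the series. Polyadenylated RNA was sequenced from mouse kidney in 4 libraries labelled Control and 4 labelled Conditional Knockout. The targeted gene, Kdm1a, encodes LSD1, which demethylates histone H3, and a conditional deletion reaches only cells in which a recombinase was active. The promoter that drives the recombinase, the strain, and the age and sex of the animals are not given in the sources used here, so neither group can be described beyond its genotype. The labels do not say that the 4 kidneys of a group came from separate animals, so p values measure the spread between these libraries.

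Podocytes are the epithelial cells on the outer face of the glomerular capillary. Their interlocking foot processes are bridged by the slit diaphragm, a cell junction built of nephrin (Nphs1) and Neph1 (Kirrel), which bind each other across the gap and connect to the actin cytoskeleton through scaffold proteins. The negatively charged coat protein podocalyxin (Podxl) keeps the slits open, and the transcription factor Wt1 is needed to make and maintain the cells. Wt1 is also made by the progenitor cells from which nephrons form, and Podxl by endothelium, so a level in whole kidney is not that of podocytes alone. In such bulk tissue, fewer cells of a type and less RNA per cell cannot be told apart.

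Total counts ran from 19524945 to 28544511 per library. Abundance is given as counts per 1000000 counts of a library (CPM), with library sizes scaled by the trimmed mean of M values. Kdm1a itself was at 113 ± 4.77 CPM in controls against 93.6 ± 1.88 CPM in knockout kidneys (SD, n = 4 per group, exact two-sided permutation p = 0.0286, the smallest that 4 against 4 libraries allow). Its transcripts were therefore lower but abundant in every knockout library. Pax8, a transcription factor of kidney epithelium, was between 115 and 138 CPM in all 8 libraries. Among genes of mature tubules, Kap was at 0 CPM and Umod at 0.05 CPM in knockout replicate 2. Others stayed well above 0, with Lrp2 at 18.7 CPM in that library and Slc12a1 at 233 CPM in knockout replicate 3. These tubule genes were named after their values were seen. Y-linked transcripts (Ddx3y, Kdm5d, Eif2s3y and Uty, summed) were at 2.63 CPM or less in control replicate 2 and knockout replicates 1 and 4, and at 229 CPM or more in the other 5 libraries. The 10 adrenal genes measured summed to 2650 CPM in knockout replicate 1. They summed to 355 CPM in replicate 4 of the knockouts, 150 CPM in replicate 4 of the controls and at most 23.2 CPM elsewhere.

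The 8 genes did not move together. Nphs1 and Podxl fell in the knockout kidneys, to 26.2% and 45.5% of the control mean, and Kirrel rose to 125%. Ptpro and Synpo had lower means, at 36.6% and 56.0% of control, without passing the test. Magi2, Plce1 and Wt1 had knockout means of 107%, 105% and 103% of control. All 8 genes passed the filter on low counts. Of these, 2 were called lower, 1 was called higher and 5 were not called, where a call is an adjusted p under 0.05 in the quasi-likelihood test of edgeR over 18485 genes. Over all tested genes 8.27% were called lower and 6.61% higher.

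**Figure D1:**
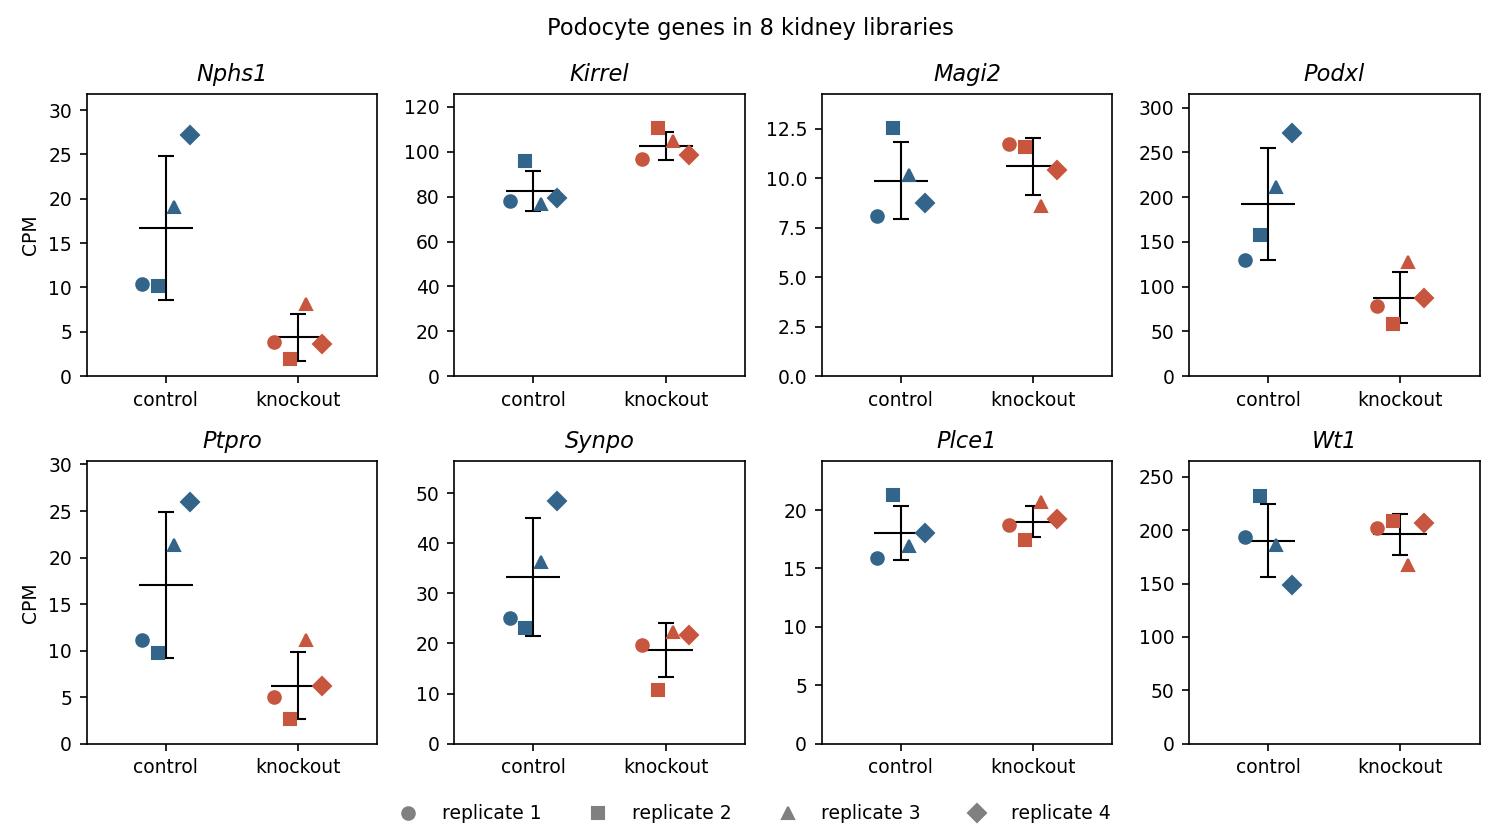
Abundance of each of the 8 podocyte genes, in CPM on a linear axis from 0, in 4 control (blue) and 4 knockout (red) kidney libraries. Symbols mark the replicate number, the horizontal line is the mean and the bar its SD. The groups are apart for Nphs1, Podxl, Synpo and Kirrel and overlap for the other 4 genes.

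Nphs1 (ENSMUSG00000006649, chromosome 7, 30458315 to 30487223, plus strand, GRCm38) encodes nephrin, the transmembrane protein that spans the slit. It stood at 10.4, 10.2, 19.1 and 27.2 CPM in control replicates 1 to 4, and at 3.80, 1.91, 8.13 and 3.67 CPM in knockout replicates 1 to 4. Every knockout library lay below every control, although the controls themselves spread 2.68-fold and the knockouts 4.26-fold. The log2 fold change was −1.92 (SE 0.46, edgeR adjusted p 0.0300).

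Kirrel (ENSMUSG00000041734, chromosome 3, 87078593 to 87174747, minus strand) encodes Neph1, the partner of nephrin in the slit, and is also made outside podocytes. It stood at 78.1, 95.8, 76.6 and 79.3 CPM in controls and at 96.6, 111, 105 and 98.7 CPM in the knockouts. All 4 knockouts lay above all 4 controls, but by a margin of less than 1 CPM between control replicate 2 and knockout replicate 1. The log2 fold change was 0.32 (SE 0.09, edgeR adjusted p 0.0399). The 2 partners of the slit thus changed in opposite directions in these libraries.

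Magi2 (ENSMUSG00000040003, chromosome 5, 19227036 to 20704792, plus strand) encodes a scaffold protein that binds the tail of nephrin and is abundant in brain. Its control libraries held 8.11, 12.5, 10.2 and 8.73 CPM and its knockout libraries 11.7, 11.6, 8.62 and 10.4 CPM. The ranges overlapped widely, and the log2 fold change of 0.10 (SE 0.17) was not called (edgeR adjusted p 0.695).

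Podxl (ENSMUSG00000025608, chromosome 6, 31519488 to 31563981, minus strand), the sialomucin of the podocyte surface, was the more abundant of the 2 genes that fell, also per exon length. It stood at 130, 157, 212 and 271 CPM in controls and at 78.3, 58.5, 127 and 87.0 CPM in the knockouts. The groups were apart by a narrow gap between control replicate 1 and knockout replicate 3. The log2 fold change was −1.13 (SE 0.27, edgeR adjusted p 0.0300). The 12 endothelial genes measured beside it summed to between 723 and 1110 CPM in controls and between 508 and 848 CPM in the knockouts. Their part in the change of Podxl was not tested.

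Ptpro (ENSMUSG00000030223, chromosome 6, 137252319 to 137463233, plus strand) encodes GLEPP1, a receptor tyrosine phosphatase of the foot process surface. Its levels were 11.2, 9.69, 21.3 and 25.95 CPM in controls and 5.07, 2.61, 11.1 and 6.15 CPM in the knockouts. Knockout replicate 3 lay above control replicate 2 and just below control replicate 1, so the groups overlapped. The log2 fold change of −1.44 (SE 0.45) was larger than that of Podxl but was not called (edgeR adjusted p 0.0603).

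Synpo (ENSMUSG00000043079, chromosome 18, 60593973 to 60660142, minus strand) encodes synaptopodin, an actin-binding protein of foot processes and of dendritic spines. It stood at 25.1, 23.1, 36.3 and 48.5 CPM in controls and at 19.7, 10.7, 22.4 and 21.8 CPM in the knockouts. Every knockout lay below every control, yet the log2 fold change of −0.83 (SE 0.29) was not called (edgeR adjusted p 0.0760).

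Plce1 (ENSMUSG00000024998, chromosome 19, 38481109 to 38785030, plus strand) encodes phospholipase C epsilon, a signalling enzyme whose loss in humans causes nephrotic syndrome. Its control libraries held 15.9, 21.3, 16.9 and 18.0 CPM and its knockout libraries 18.8, 17.5, 20.7 and 19.2 CPM. All 4 knockout values lay inside the control range, with a log2 fold change of 0.08 (SE 0.11, edgeR adjusted p 0.644).

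Wt1 (ENSMUSG00000016458, chromosome 2, 105126529 to 105173616, plus strand) stood at 194, 232, 186 and 149 CPM in controls and at 203, 208, 168 and 207 CPM in the knockouts. All knockout values again lay inside the control range, with a log2 fold change of 0.04 (SE 0.13, edgeR adjusted p 0.826). Wt1os, an antisense transcript whose deposited start lies 19 bases from that of Wt1 and which shares 0 exon bases with it, was at 23.5 ± 5.14 CPM in controls and 28.7 ± 4.28 CPM in knockouts (n = 4 each, log2 fold change 0.29, SE 0.17, edgeR adjusted p 0.253). Nephron progenitor genes were detected beside Wt1 in every library. The 8 genes of that list summed to between 461 and 696 CPM in controls and between 499 and 712 CPM in the knockouts. These sums hold unequal changes, with log2 fold changes from −1.64 to 0.47, 3 below 0 and 5 above. Of the 8 genes, 2 were called lower and 0 higher, where 8.27% and 6.61% of all tested genes were. Their part in the level of Wt1 was not tested.

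The groups were apart for 4 of the 8 genes, 3 of them lower and 1 higher in the knockout, while this held for 9.58% and 9.29% of all tested genes. DESeq2 and limma-voom with sample weights each called 4 of the 8 lower and 1 higher, where DESeq2 called 13.6% and 10.8% of all genes and limma-voom 22.9% and 22%. The calls were lost when any of several libraries was left out, while the direction stayed. With each of the 8 libraries left out in turn, Nphs1 was called in 2, Podxl in 3 and Kirrel in 1, with edgeR adjusted p values of at most 0.0952, 0.0913 and 0.119. Their log2 fold changes ran from −2.38 to −1.59, from −1.35 to −0.93 and from 0.28 to 0.40 in those fits. Without control replicate 2 the adjusted p values of Ptpro and Synpo were 0.0208 and 0.0253, within ranges of 0.0208 to 0.158 and 0.0253 to 0.192 over those 8 fits. With the mean level of the adrenal genes as a covariate, the log2 fold changes of Nphs1 and Podxl were −1.93 (SE 0.51) and −1.16 (SE 0.31), about as in the fit without it, and the adjusted p values were 0.0588 and 0.0592. With the Y-linked covariate Kirrel was at 0.31 (SE 0.09) with an adjusted p of 0.0569. Over 17 alternatives these values ran from 2.34e-04 to 0.0952 for Nphs1, from 3.86e-04 to 0.0913 for Podxl and from 0.00179 to 0.119 for Kirrel. With control replicate 2 and knockout replicate 3 both left out, 4 of the 8 genes were called lower and 1 higher, where 22.2% and 20.5% of all genes were.

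**Figure D2:**
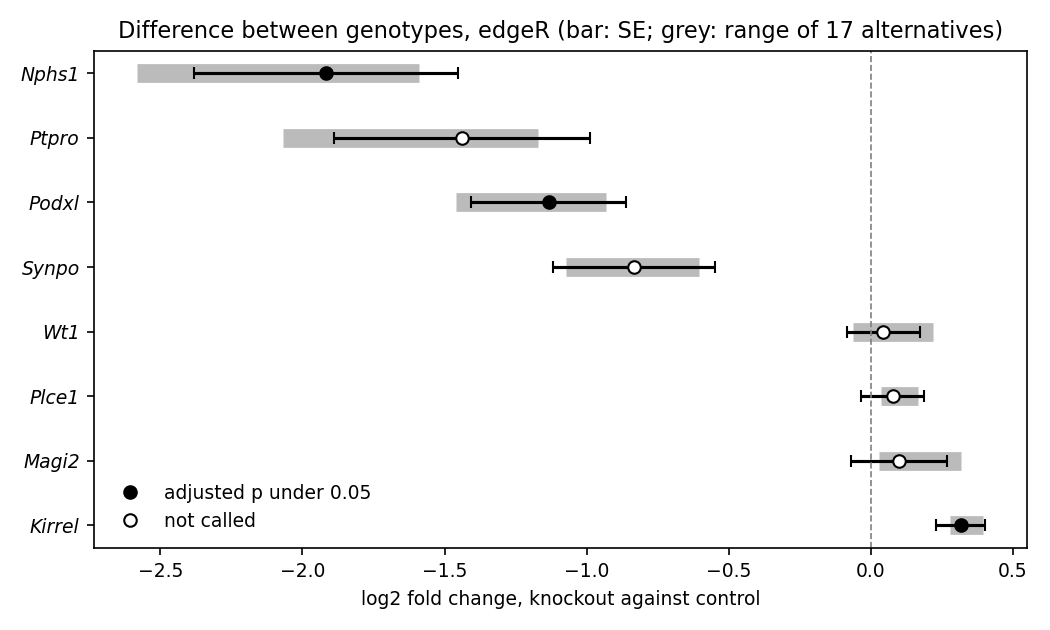
Log2 fold change of knockout against control for each gene, from edgeR. Points are the estimate and bars its SE, filled where the adjusted p was under 0.05, and the grey band is the range over 17 alternative analyses. Nphs1, Ptpro, Podxl and Synpo lie below 0 and Kirrel, Magi2 and Plce1 above 0 over their whole band, while the band of Wt1 crosses 0.

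The 4 genes with lower means shared the highest control library and both extremes among knockouts. Nphs1, Podxl, Ptpro and Synpo were each highest in control replicate 4 among controls. Among knockouts, Nphs1, Podxl and Ptpro were highest in replicate 3 and lowest in replicate 2, as was Synpo. Wt1 ran the other way, lowest in control replicate 4 and knockout replicate 3 and highest in control replicate 2 and knockout replicate 2. The summed markers of endothelium, parietal epithelium, proximal tubule and thick ascending limb had the same extremes as Nphs1. So did the sums of the foot process cytoskeleton and of the surface and secreted podocyte genes described below. The endothelial sum was 1110 CPM in control replicate 4, and 848 and 508 CPM in knockout replicates 3 and 2. The proximal tubule sum (10 genes) was 1605, 194 and 34.5 CPM in the same 3 libraries, and the thick ascending limb sum (6 genes) was 1084, 312 and 14.4 CPM. Not every list ran this way. The nephron progenitor sum was 461 CPM in control replicate 4, and 499 and 712 CPM in knockout replicates 3 and 2. Among knockouts the mesangium and pericyte sum was highest in replicate 1, at 675 CPM. Whether these lists had a part in the differences of the podocyte genes was not tested.

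Levels were compared between genes only after division by exon length, as CPM per 1000 exon bases (RPKM). In controls Podxl led at 35.1 ± 11.4 RPKM, followed by Wt1 at 30.7 ± 5.53 RPKM, and their ranges overlapped. Kirrel came next at 11.0 ± 1.20 RPKM, apart from its neighbours in the order. Synpo (3.49 ± 1.23 RPKM), Ptpro (2.53 ± 1.17 RPKM) and Nphs1 (2.52 ± 1.23 RPKM) overlapped one another. Plce1 (1.13 ± 0.15 RPKM) and Magi2 (0.87 ± 0.17 RPKM) were lowest and overlapped. In knockouts Wt1 led alone at 31.7 ± 3.09 RPKM, and Podxl (15.98 ± 5.25 RPKM) overlapped Kirrel (13.8 ± 0.85 RPKM). Nphs1 moved from rank 6 to rank 8, at 0.66 ± 0.40 RPKM, overlapping Ptpro at 0.93 ± 0.53 RPKM (SD, n = 4 for every value). Its range of 0.29 to 1.23 RPKM also overlapped Magi2 (0.76 to 1.03 RPKM) and Plce1 (1.09 to 1.29 RPKM). The rank of Nphs1 among these genes is therefore not settled.

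The genes were also compared within each library, as the log2 ratio of the CPM of Nphs1 to that of another gene, each with 0.5 CPM added. Relative to Wt1 the ratio was −3.57 ± 0.92 in controls and −5.48 ± 0.89 in knockouts, a difference of −1.91. The groups overlapped, since knockout replicate 3 (−4.29) lay above control replicate 2 (−4.45), and the exact two-sided permutation p was 0.0571 (adjusted 0.0571 over the 7 ratios). Relative to Kirrel the difference was −2.17, relative to Plce1 −1.93 and relative to Synpo −1.04, each with groups apart, an exact permutation p of 0.0286 and an adjusted p of 0.05. That adjusted value is not under 0.05, and the smallest raw p the design allows is 0.0286.

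Nphs1 and Ptpro came closest to a fixed proportion. Their log2 ratio was −0.03 ± 0.12 in controls and −0.46 ± 0.14 in knockouts, so Nphs1 was lower than Ptpro by a further 0.43 on the log2 scale, with groups apart (exact permutation p 0.0286, adjusted 0.05). The SD of this ratio within a group was a fraction of the SD of the ratio to Wt1. Relative to Podxl and Magi2 the differences were −0.72 and −1.95, with overlapping groups and an exact permutation p of 0.0571 each. The prior of 0.5 CPM added before the logarithm pulls in the ratios of low genes. With a prior of 2 CPM the difference relative to Podxl was −0.42 and that relative to Synpo −0.77, and no adjusted p crossed 0.05.

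**Figure D3:**
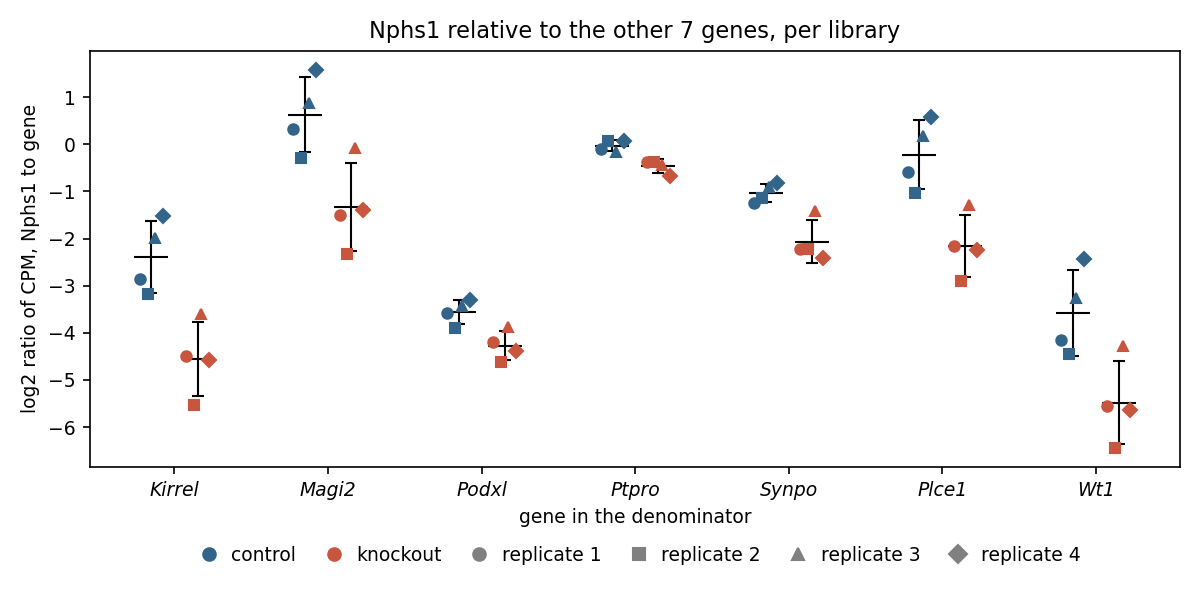
Log2 ratio of the CPM of Nphs1 to that of each of the other 7 genes, in 4 control (blue) and 4 knockout (red) libraries. Horizontal lines are means, bars SD and symbols replicate numbers. The ratio to Ptpro varies least among libraries, and the ratios to Ptpro, Kirrel, Plce1 and Synpo are apart between the groups.

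Promoter sequences are shown for 4 of the genes because Nphs1 and Kirrel, the binding partners with opposite changes, can then be set beside Ptpro, the member that varied most like Nphs1, and Magi2, which was not called. RefSeq promoter windows (GRCm38.p6, 250 bases before to 50 after a gene start) were found for 5 of the 8 genes. Podxl, Synpo and Wt1 are named only. Each is given 5′ to 3′ on the strand of its gene, and capitals mark a match to the EGR/WT1-type motif GCGNGGGNG on either strand. The windows are chr7:30459808-30460107 (Nphs1, plus strand), chr6:137252049-137252348 (Ptpro, plus strand), chr3:87174488-87174787 (Kirrel, minus strand) and chr5:19226796-19227095 (Magi2, plus strand, the first of its 2 windows).
Nphs1: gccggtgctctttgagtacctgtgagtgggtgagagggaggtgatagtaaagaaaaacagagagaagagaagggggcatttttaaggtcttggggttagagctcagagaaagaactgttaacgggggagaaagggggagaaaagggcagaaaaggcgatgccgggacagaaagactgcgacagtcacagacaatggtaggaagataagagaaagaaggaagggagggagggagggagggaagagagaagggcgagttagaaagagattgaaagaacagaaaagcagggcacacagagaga
Ptpro: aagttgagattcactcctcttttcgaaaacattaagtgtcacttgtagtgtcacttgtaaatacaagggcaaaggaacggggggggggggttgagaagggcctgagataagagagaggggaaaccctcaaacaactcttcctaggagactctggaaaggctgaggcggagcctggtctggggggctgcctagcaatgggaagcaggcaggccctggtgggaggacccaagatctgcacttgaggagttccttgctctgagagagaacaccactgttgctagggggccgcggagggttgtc
Kirrel: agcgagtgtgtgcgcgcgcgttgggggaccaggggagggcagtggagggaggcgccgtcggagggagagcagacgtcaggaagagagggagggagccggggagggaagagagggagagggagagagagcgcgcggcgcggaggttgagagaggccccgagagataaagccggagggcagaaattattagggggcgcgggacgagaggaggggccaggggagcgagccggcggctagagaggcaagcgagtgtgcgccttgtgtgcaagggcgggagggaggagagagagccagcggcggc
Magi2: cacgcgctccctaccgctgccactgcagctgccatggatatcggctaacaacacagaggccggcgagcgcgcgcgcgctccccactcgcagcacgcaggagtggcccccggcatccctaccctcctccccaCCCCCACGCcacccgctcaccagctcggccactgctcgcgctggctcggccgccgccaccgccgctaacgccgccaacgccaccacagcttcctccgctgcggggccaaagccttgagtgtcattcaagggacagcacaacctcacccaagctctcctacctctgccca

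The Nphs1 and Kirrel windows were unusually rich in A and G on the gene's own strand. Purines made up 77.7% of the Nphs1 window and 75.7% of the Kirrel window, against a median of 50.3% over 32851 promoter windows, of which 99.96% and 99.93% held less. Ptpro stood at 60%, where 94.3% of all windows held less, and Plce1 at 56.7%, where 85.9% did. The first Magi2 window stood at 40.7%, where 4.67% of all windows held less. CpG dinucleotides did not pair the genes in the same way, with 6 in Nphs1, 5 in Ptpro and 8 in Plce1 but 28 in Kirrel (median of all windows 7). The first Magi2 window held 29 and the second 4. The EGR/WT1-type motif was matched once, in the first Magi2 window on the minus strand, and 12.3% of all windows held it. Of 4 other motifs searched on both strands, CAGCTG (an E-box, in 16.3% of all windows) was matched in the first Magi2 window. TAATTA (a homeodomain motif, in 5.29%) was matched in the second Magi2 window. TGCTGAC (a MAF-type motif, in 4.67%) and GTAAACA (a forkhead motif, in 3.65%) were matched in none of the 6 windows. None of the motif matches overlapped another. These are matches of letters in a short window. The RefSeq starts used for Nphs1, Plce1 and Kirrel lie inside the genes as deposited. The first bases of those genes are 30458315, 38481109 and, for Kirrel on the minus strand, 87174747. Most of the Kirrel window therefore lies within its gene, and the Nphs1 and Plce1 windows lie wholly within theirs. The RefSeq start of the first Magi2 window lies just inside its gene, whose first base is 19227036, and the second Magi2 window lies inside it.

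The genes most like Nphs1 over the 8 libraries were sought by the root mean square difference of log2 CPM, each gene centred on its own mean, among 14228 other genes that averaged 1 CPM or more. Baiap2l2, an I-BAR domain protein of epithelial cells, was nearest at 0.17, followed by Atp1b1, a subunit of the sodium pump, at 0.20, Mymx at 0.22, Cwh43 at 0.23 and Ptpro at 0.24. The median over all genes compared was 1.11. Baiap2l2 went from 30.1 ± 12.6 to 8.17 ± 4.53 CPM and Atp1b1 from 862 ± 360 to 260 ± 155 CPM (SD, n = 4). By this measure Podxl ranked 148, Synpo 369 and Wt1 10772 from Nphs1. The nearest to Wt1 were Rpp30 (0.06), Mdm2 (0.07), Hoxa4 (0.07), Foxd2 (0.08) and Lsm5 (0.08), where the median was 0.27. A gene of little variation lies near any other such gene by this measure.

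Of the relatives of Kirrel, Kirrel3 was called higher and Kirrel2 was not called. Kirrel2, a Neph1 relative on the opposite strand whose deposited start lies 625 bases from that of Nphs1, was at 0.84 ± 0.60 CPM in controls and 0.33 ± 0.24 CPM in knockouts (log2 fold change −1.29, SE 0.62, edgeR adjusted p 0.170). Its groups overlapped and it held only 2 to 37 counts in a library, so its direction is not settled. Kirrel3, another Neph gene, rose from 3.08 ± 0.85 to 6.25 ± 0.69 CPM (log2 fold change 1.02, SE 0.21, edgeR adjusted p 0.0207), with every knockout above every control.

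Of 15 slit diaphragm partners, 1 was called lower and 4 higher, where 8.27% and 6.61% of all tested genes were. The genes called higher were Kirrel3, the cytoskeletal linker of tight junctions Tjp1 (168 ± 5.13 to 209 ± 6.17 CPM, log2 fold change 0.31), the scaffold Magi1 (50.04 ± 3.97 to 62.8 ± 1.39 CPM, log2 fold change 0.33) and Fat1, a protocadherin (log2 fold change 0.45, adjusted p 0.0225). Tjp1, Magi1 and Fat1 are made by many epithelial cells. The gene called lower was Crb2, a polarity protein of the slit (log2 fold change −0.75, adjusted p 0.0346). The median of the list was −0.01, against 0.00 over all tested genes. At an unadjusted edgeR p under 0.05, 3 were lower and 5 higher, where 35.1% of all tested genes passed in either direction. DESeq2 called 1 lower and 5 higher, where it called 13.6% and 10.8% of all genes. With limma-voom the counts were 4 and 6, where it called 22.9% and 22% of all genes. Fat1 and Crb2 were named after their values were seen, to complete the counts.

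Podocyte transcription factors other than Wt1 had 0 calls among 10 genes by edgeR, with 2 lower and 2 higher at an unadjusted p under 0.05. Over all tested genes 35.1% had an unadjusted edgeR p under 0.05, in either direction. DESeq2 called 1 lower and 1 higher, where it called 13.6% and 10.8% of all genes. With limma-voom the counts were 2 and 6, where it called 22.9% and 22% of all genes. The smallest p values belonged to Ldb1, a cofactor of Lmx1b (log2 fold change 0.17, edgeR adjusted p 0.0666), Foxc2 (−0.38, edgeR adjusted p 0.0730) and Nfia (0.98, edgeR adjusted p 0.0952). Foxc2, a forkhead factor of early podocytes, was at 56.1 ± 9.27 CPM in controls and 43.0 ± 5.11 CPM in knockouts.

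Of 14 genes of the foot process cytoskeleton, 5 were called lower and 0 higher, where 8.27% and 6.61% of all tested genes were. In this list 11 had a log2 fold change below 0, and the median log2 fold change was −0.38. At an unadjusted p under 0.05, 9 were lower and 2 higher, where 35.1% of all tested genes passed in either direction. DESeq2 called 9 lower and 1 higher, where it called 13.6% and 10.8% of all genes. With limma-voom the counts were 10 and 2, where it called 22.9% and 22% of all genes. Clic5, a chloride channel relative bound to ezrin, fell from 26.5 ± 9.31 to 10.9 ± 2.86 CPM (log2 fold change −1.27, SE 0.28, edgeR adjusted p 0.0232). Rhpn1 fell from 22.8 ± 10.6 to 8.68 ± 1.85 CPM (−1.39, SE 0.31, edgeR adjusted p 0.0259). Slc9a3r2, which ties podocalyxin to ezrin, fell from 97.0 ± 23.3 to 56.3 ± 10.1 CPM (−0.78, SE 0.19, edgeR adjusted p 0.0286), although the groups overlapped.

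Among 16 further podocyte genes, most of which encode surface or secreted proteins, 3 were called lower and 2 higher. Of these genes 12 had a log2 fold change below 0, with a median of −0.30. At an unadjusted edgeR p under 0.05, 7 were lower and 2 higher, where 35.1% of all tested genes passed in either direction. DESeq2 called 5 lower and 2 higher, where it called 13.6% and 10.8% of all genes. With limma-voom the counts were 8 and 3, where it called 22.9% and 22% of all genes. Tdrd5 fell from 4.01 ± 1.94 to 0.96 ± 0.40 CPM (log2 fold change −2.05, SE 0.43, edgeR adjusted p 0.0222). Pdpn, which encodes podoplanin and is shared with lymphatic vessels and mesothelium, rose from 50.8 ± 5.15 to 79.5 ± 3.91 CPM (0.65, SE 0.08, edgeR adjusted p 0.00769). Pla2r1, the phospholipase A2 receptor, rose from 13.5 ± 1.80 to 21.3 ± 2.39 CPM (0.66, SE 0.13, edgeR adjusted p 0.0183). Over the 4 lists together, 9 of 55 genes were called lower and 6 higher, and 33 had a log2 fold change below 0. Over all 18485 tested genes 8.27% were called lower and 6.61% higher, and 9148 had a log2 fold change below 0.

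**Figure D4:**
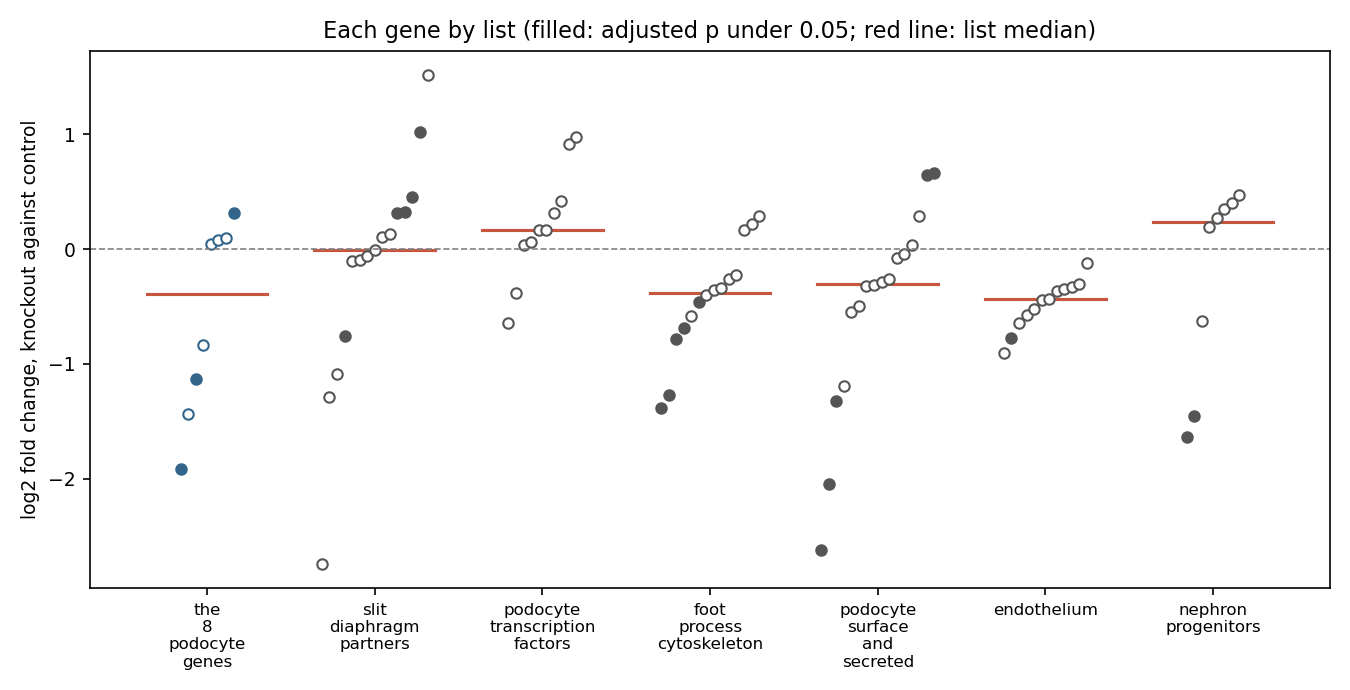
Log2 fold change of every tested gene, knockout against control, for the 8 podocyte genes (blue) and for 4 further podocyte lists, endothelium and nephron progenitors (grey). Filled points had an edgeR adjusted p under 0.05 and the red line is the median of a list. The 12 endothelial genes all lie below 0, while every podocyte list has points on both sides.

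Markers of the other cells that a kidney library can hold gave the following counts. For comparison, edgeR called 8.27% of all tested genes lower and 6.61% higher, and DESeq2 13.6% and 10.8%. An unadjusted edgeR p under 0.05 was found for 35.1% of all tested genes, in either direction. Of 12 endothelial genes 1 was called lower and 0 higher (median log2 fold change −0.44), with 8 lower and 0 higher at an unadjusted p under 0.05, while DESeq2 called 6 and 0. All 10 proximal tubule genes were called lower (median −3.07), and 4 of 6 thick ascending limb genes (median −2.43). Of 8 nephron progenitor genes 2 were called lower (median 0.23), of 8 leukocyte genes 2 higher (median 0.30 over 7 tested), and of 6 mesothelial genes 0, with 1 higher at an unadjusted p under 0.05, also called by DESeq2 (median 0.57). Of 10 adrenal genes 0 were called, with 5 higher at an unadjusted p under 0.05 and 4 called by DESeq2 (median 3.84 over 9 tested). Summed levels of control and knockout libraries ran from 148 to 217 and from 133 to 220 CPM for mesothelium, and from 97.3 to 118 and from 116 to 148 CPM for leukocytes, where the T cell gene Cd3e was at or near 0 throughout.

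Reads shared with other genes touch few of the values. Nphs1os, on the opposite strand, covers 597 exon bases of Nphs1 (9.02%) and reached at most 2 counts in a library. The pseudogene Rps12-ps4 covers another 183 bases (2.76%) and was at 4.23 ± 0.88 and 4.32 ± 0.48 CPM in controls and knockouts (n = 4). Gm29254 covers 203 exon bases of Magi2 (1.79%) and also reached at most 2 counts. The other 6 genes share 0 exon bases with any other counted gene. Besides Kirrel2 and Wt1os, 15 genes, almost all non-coding, lie in introns of the 8 genes or start within 5 kb of them without sharing an exon base, and reached at most 48 counts in a library.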

How the data were processed

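RNA from frozen kidney was enriched for messenger RNA with oligo-dT beads and built into NEBNext Ultra libraries, per the labels' protocols. The deposited values are raw counts of reads per gene as whole numbers, summed over exons, per the file headers. The submitters' processing notes name Trimmomatic 0.36, STAR 2.5.2b, featureCounts of Subread 1.5.2, DESeq2 and GRCm38, without order. Use of strand and treatment of reads that match several genes are not given in the sources used here, so reads of antisense or near-identical genes cannot be separated. The table of the whole series differed from the library files in 0 cells. GENCODE M21 symbols were found for 48970 of 49315 IDs.

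Counts were scaled by TMM, filtered with filterByExpr (18485 genes) and tested between genotypes with glmQLFit and glmQLFTest (edgeR 4.0.16, R 4.3.3), without covariates and with Benjamini-Hochberg adjustment across tested genes. The same code was tested on simulated data. SE values are the fold change divided by the root of F. CPM uses TMM library sizes, and 1 count stood for 0.0350 to 0.0512 CPM of the raw library size. Ratios and likeness used log2 of CPM plus 0.5. Permutation tests were exact and two-sided (scipy 1.17.1). Alternatives were DESeq2 size factors, DESeq2 1.42.0, limma-voom (limma 3.58.1), other filters, a prior of 2 CPM in the ratios, the replicate number as a block, covariates for Y-linked and for adrenal transcripts, and leaving out libraries.

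The members, gene lists and tests were chosen with earlier results of these data known. Beyond the 8 genes and Kdm1a, the text names Kirrel2 and Kirrel3, the 3 genes with the smallest p in each of 4 podocyte lists, genes that overlap or start within 5 kb of a member, and the 5 genes nearest to Nphs1 and to Wt1. Intronic and nearby genes that share no exon are given as a count. A gene that the rule also picks is not reported here. Exceptions are stated beside their values.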

Additional observations from a re-analysis of the deposited data

Results flagged for a closer look

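Among 16 sets of 4 libraries (8 genes in 2 groups), 2 held a library far from the other 3 of its group on the log2 scale, by Dixon's gap test, where chance gives about 1 in 20. Kirrel in control replicate 2, at 95.8 CPM, stood above the other controls at 76.6 to 79.3 CPM and close to the lowest knockout. Wt1 in knockout replicate 3, at 168 CPM, stood below the other knockouts at 203 to 208 CPM. Without control replicate 2 the log2 fold change of Kirrel was 0.40 (edgeR adjusted p 0.00273, in a range of 0.00273 to 0.119 over the 8 fits that left out a library). Without knockout replicate 3 that of Wt1 was 0.13 (adjusted p 0.507, range 0.302 to 0.956).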

How the results depend on the processing

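Over 17 alternatives Nphs1 was called in 10, Podxl in 11, Kirrel in 8, Ptpro in 6 and Synpo in 5, each with its direction kept, and Magi2, Plce1 and Wt1 in 0. Wt1 changed sign in some, from −0.06 to 0.22, without a call. The number of genes called, 2751, became 3229 with the replicate block, 2392 with no filter on low counts and 2104 with the Y-linked covariate. It became 4506 with DESeq2, 8302 with limma-voom and sample weights and 1269 with the adrenal covariate. With control replicate 2 and knockout replicate 3 both left out it became 7903. Members called lower, 2, became 4 with DESeq2, limma-voom, the replicate block or those 2 libraries left out, and 0 with the adrenal covariate. Members called higher, 1, became 0 with no filter on low counts or the Y-linked covariate. Other podocyte genes called lower, 9, became 16 with DESeq2, 24 with limma-voom, 17 with the replicate block, 3 with the adrenal covariate and 24 without both libraries, and those called higher, 6, became 17 with limma-voom and 17 without both libraries. The cause of these shifts was not tested.

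With single libraries left out, calls ran from 153 to 7084 over all genes, from 0 to 4 for members lower and from 0 to 1 for members higher. Other podocyte genes ran from 0 to 19 lower and from 1 to 15 higher, and the log2 fold change of Kdm1a from −0.29 to −0.24, called in 3 of 8 fits. The difference in the ratio of Nphs1 to Kirrel ran from −2.48 to −1.84, to Magi2 from −2.37 to −1.62, to Plce1 from −2.21 to −1.66, to Wt1 from −2.30 to −1.52, to Synpo from −1.26 to −0.92, to Podxl from −0.85 to −0.60 and to Ptpro from −0.47 to −0.36. Exact tests of 3 against 3 libraries or of 4 pairs cannot go below 0.100 and 0.125. Nothing in the labels pairs the replicate numbers. Same-numbered deviations correlated at −0.11, 0.33, 0.23 and −0.06 over the tested genes, so the replicate block rests on a shared number only, and its 4 members called lower are given for completeness.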

Other observations

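Lists for cells that border podocytes in the glomerulus gave the following counts. The genes named here were picked after their values were seen. Of 8 genes of mesangium and pericytes 1 was called higher by edgeR and 0 lower, where 6.61% and 8.27% of all tested genes were. DESeq2 called 1 higher and 1 lower, where it called 10.8% and 13.6% of all genes. At an unadjusted edgeR p under 0.05, 2 were higher and 2 lower, where 35.1% of all tested genes passed in either direction. The gene called higher by edgeR was Gata3, a transcription factor of mesangial cells and collecting duct. It was at 72.0 ± 15.2 CPM in controls and 106 ± 12.6 CPM in knockouts (n = 4, edgeR adjusted p 0.0364), with overlapping groups. Ren1, the renin gene of the juxtaglomerular cells, ran from 53.4 to 369 CPM in controls and from 4.07 to 115 CPM in knockouts and was not called (edgeR adjusted p 0.148). Of 8 genes of the parietal epithelium that lines the Bowman capsule, Cldn1 and Akap12 were called higher and Cldn2 lower by edgeR. Its shares over all tested genes were 6.61% higher and 8.27% lower. Cldn2 is also a proximal tubule gene. Cldn1 stood at 133 ± 42.6 CPM in controls and 269 ± 59.1 CPM in knockouts (n = 4, edgeR adjusted p 0.0289), and its groups overlapped. Palld, an actin-binding protein of foot processes and smooth muscle, was at 107 CPM in knockout replicate 3 and at 38.3 to 45.9 CPM in the other knockouts, with controls at 51.8 to 90.1 CPM.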
